A study of Mus musculus with 73 samples.

Results

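The arrays described here compared mammary tumors of MMTV-PyMT transgenic mice with normal mammary gland. They were the 5 direct hybridisations labelled with the model MMTV-PyMT, of 73 arrays in the series. On each array, RNA of an MMTV-PyMT mammary tumor (strain FVB, Cy5) was hybridised together with RNA of wild-type FVB mammary gland (Cy3). For the comparison between oncogenes, the direct arrays of MMTV-her2/neu (5), MMTV-ras (5) and MMTV-myc (4) tumors were used, which had the same FVB background, tissue and kind of normal gland. All 4 transgenes were driven by the MMTV promoter, so they were switched on in mammary epithelium and whole tumors with their stroma were compared with whole glands. The labels give neither the age nor the parity of the mice, nor whether the 5 tumors came from separate animals. Standard errors and p-values rest on 1 spread per gene, shared by all 38 direct arrays of 8 tumor models. Besides the MMTV models above, these were p53-null transplant, p53 floxed WAP-cre, Brca1 floxed p53 and C3(1) Tag tumors. The p-values thus measure the spread between arrays within all these models, not within MMTV-PyMT alone, and it may be partly technical. The dyes were never swapped, and a gene that takes up 1 dye better would shift the ratio against 0, whereas such a shift cancels between models.

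Polyoma middle T antigen is a membrane-anchored viral protein with no enzymatic activity of its own. It binds the phosphatase PP2A, activates Src family kinases, and is then phosphorylated on tyrosines that recruit Shc and phosphatidylinositol 3-kinase, so that it acts like a permanently active receptor tyrosine kinase. Under the MMTV promoter it gives multifocal mammary carcinomas that often spread to the lung. The normal gland beside which the tumors were measured is largely a fat pad crossed by epithelial ducts.

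All values below are log2 ratios of tumor over normal gland, with the median of each array set to 0, and a change is the mean over the arrays with its standard error (SE) from limma. The 5 arrays held values for 7042 to 7881 of 9596 features, and their deposited medians lay between -0.42 and 0.28. They resembled each other, with a Pearson r across genes of 0.702 to 0.809 in each pair. Between MMTV-PyMT arrays and those of the other models r was 0.492 to 0.763 for MMTV-her2/neu, 0.351 to 0.723 for MMTV-ras and 0.257 to 0.754 for MMTV-myc. Of 5768 genes tested, 4671 had a value on all 5 arrays. The transgene was not measured, and Esr1, Pgr, Prlr, Erbb2, Krt18 and Vim were not analysed here.

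MMTV-PyMT tumors differed from normal gland at 1749 of 5768 genes (30.3%), of which 1055 (18.3%) were higher and 694 (12%) were lower in the tumors (limma, Benjamini-Hochberg adjusted p under 0.05). At least 2-fold changes made up 261 of the rises and 119 of the falls. The median change over all genes was -0.02. Without centring 1220 genes (21.2%) passed, 730 higher and 490 lower, and 2357 (40.9%) passed when the 5 arrays were fitted alone. The count was 1178 without array 1 and 1058 without array 5.

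The largest rise was that of Lcn2, a secreted protein that binds iron-carrying siderophores. Its log2 ratio was 4.81, 3.47, 3.71, 4.22 and 5.31 on arrays 1 to 5, a change of 4.30 ± 0.68 or 19.8-fold (adjusted p = 1.26e-05). Every array was above 0 by more than the range among the arrays. Chil1, a secreted chitinase-like protein, had values of 2.18, 3.55, 3.07, 3.95 and 4.30 and was 10.6-fold higher (3.41 ± 0.44, adjusted p = 5.14e-07). Igfbp5, which binds insulin-like growth factors, had values of 3.43, 3.15, 2.17, 2.43 and 4.14 and was 8.36-fold higher (3.06 ± 0.42). Among the next largest rises were the actin-organising protein Shroom3 (2.37 ± 0.29), the phosphatase Dusp18 (2.27 ± 0.23), the disulfide isomerase P4hb (2.15 ± 0.33), Litaf (2.14 ± 0.32), the GATA-type zinc finger repressor Trps1 (2.11 ± 0.32) and the creatine transporter Slc6a8 (2.06 ± 0.25). These 6 genes were chosen from genes with all 5 arrays above 0, so their sign on each array was fixed by the choice.

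The largest falls were those of muscle, fat and casein genes. Myh1, a fast skeletal myosin heavy chain, had values of -4.63, -2.95, -3.50, -3.08 and -3.94, a change of -3.62 ± 0.35 (adjusted p = 6.84e-09), which is 12.3-fold lower in the tumors. Ces1d, a carboxylesterase that hydrolyses lipid in fat tissue, had values of -2.60, -2.53, -2.78, -2.60 and -3.44 (-2.79 ± 0.28). Mlycd, which breaks down malonyl-CoA and so releases fatty acid oxidation, changed by -2.31 ± 0.23, and Apobec2, a protein of striated muscle, by -2.63 ± 0.37. These 4 genes were likewise chosen from genes with all 5 arrays below 0.

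**Figure D1:**
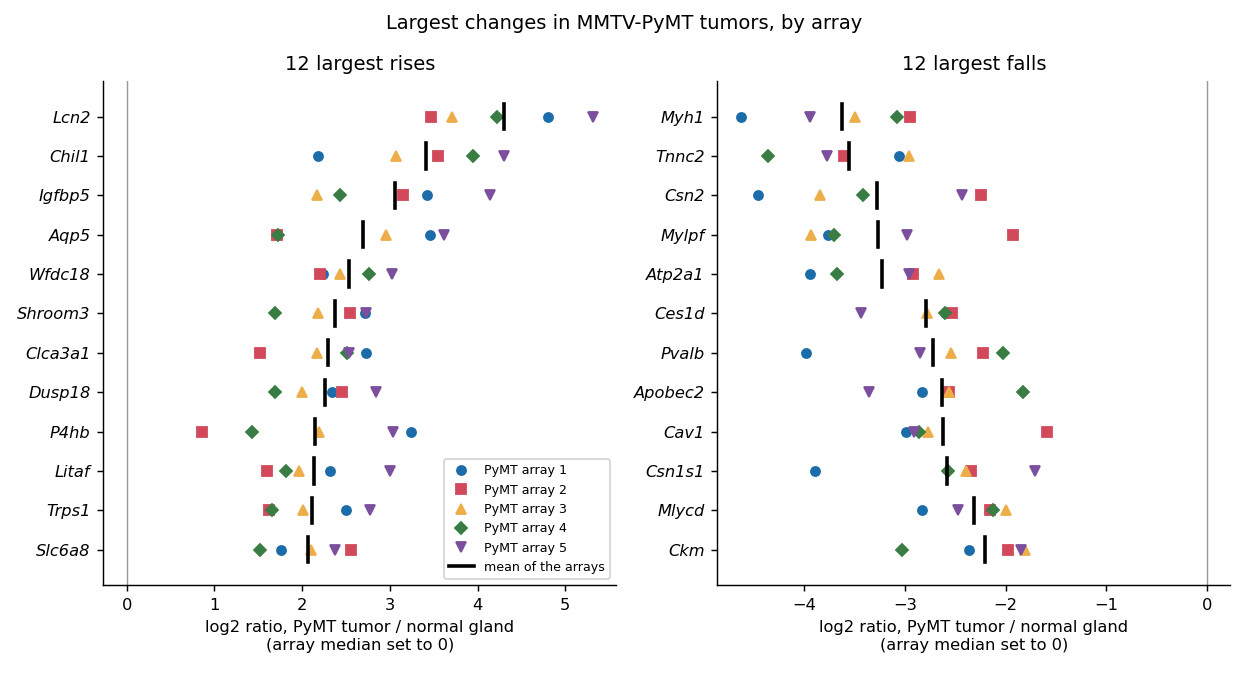
Log2 ratio of MMTV-PyMT tumor over normal gland (horizontal axis, array median at 0) for 12 rises and 12 falls. These were the largest among genes that passed with all 5 arrays on 1 side of 0, so that trait was fixed by the choice. Each marker is 1 array and the black bar is the mean, with Lcn2 at the high end and Myh1 at the low end.

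Most measured genes of fat cells fell. Of 18 adipocyte genes, 15 were lower (83.3%, against 12% of all genes) and 0 higher, with a median change of -1.26. Fabp4, the fatty acid carrier of adipocytes, had values of -6.29, -4.05, -5.59 and -5.38 on arrays 1, 3, 4 and 5 and none on array 2, and was 40.2-fold lower in the tumors (-5.33 ± 0.35, adjusted p = 8.98e-12). Lpl, which frees fatty acids from lipoproteins, had values of -5.01, -2.70, -3.82 and -3.43 on arrays 1, 2, 3 and 5 (-3.74 ± 0.45). The adipokine Adipoq had values of -2.69, -2.16, -1.58, -1.67 and -2.24 (-2.07 ± 0.27, adjusted p = 8.07e-07). Cav1, the coat protein of caveolae, had values of -2.99, -1.59, -2.77, -2.86 and -2.91, with array 2 the least low (-2.62 ± 0.46). The lipid droplet proteins Cidec and Plin4 were also lower (-1.65 ± 0.32 on 3 arrays, and -1.23 ± 0.21). The count of lower adipocyte genes was 12 without array 1 and 12 without array 5; Pparg, the master regulator of fat cells, was among those lost (-0.58, adjusted p = 0.0699, and -0.51, adjusted p = 0.103). In whole tissue, fewer cells of a type and less RNA per cell cannot be told apart.

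Fatty acid synthesis, which both fat cells and milk-producing epithelium carry out, moved unevenly. Of 9 lipogenic genes, 4 were lower (44.4%, against 12% of all genes) and 1 higher (11.1%, against 18.3%). The lower count was 2 without array 1 or array 5. Fasn, the fatty acid synthase, had values of -1.78, -2.01, -1.72, -0.69 and -2.54 (-1.75 ± 0.22, adjusted p = 2.9e-07), and Me1, the malic enzyme that supplies its NADPH, changed by -1.15 ± 0.29. Elovl5, which lengthens polyunsaturated fatty acids, was higher, with values of 1.41, 2.31, 1.06 and 1.18 on arrays 1 to 4 (1.49 ± 0.33, adjusted p = 0.000878). The synthase and the elongase were named because both passed, so their opposite signs on single arrays add no further evidence.

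Skeletal muscle genes were also lower. Of 20 measured, 12 were lower (60%, against 12% of all genes) and 0 higher, with a median of -1.53. Tnni2 and Tnnc2, troponin subunits of fast fibres, changed by -3.89 ± 0.33 (4 arrays) and -3.55 ± 0.47, Mylpf by -3.26 ± 0.33, the calcium pump Atp2a1 by -3.23 ± 0.37, parvalbumin (Pvalb) by -2.72 ± 0.36 and muscle creatine kinase (Ckm) by -2.21 ± 0.39. The same muscle genes were measured on 4 other arrays of the series, which set normal mammary gland against a reference RNA. The labels do not say whether these glands were the ones hybridised with the tumors. There the mean log2 ratio of the muscle list ran from -0.20 to 3.04 between glands, and that of Myh1 from -0.11 to 3.84, whereas the adipocyte list ran only from 2.74 to 3.01. Whether muscle in the normal glands had a part in the falls was not tested.

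Most genes of the respiratory chain and ATP synthase were lower. Of 23 measured, 16 were lower (69.6%, against 12% of all genes) and 1 was higher, with a median change of -0.80. Cycs, the electron carrier cytochrome c, had values of -2.24, -1.79, -1.92, -1.89 and -1.21 (-1.81 ± 0.21, adjusted p = 1.72e-07). Cox6c, a subunit of cytochrome oxidase, had values of -2.43, -1.91, -1.44, -1.71 and -1.50 (-1.80 ± 0.24). The ATP synthase subunit Atp5k (-1.58 ± 0.25, 3 arrays), the complex I subunit Ndufc1 (-1.31 ± 0.21) and the succinate dehydrogenase subunit Sdhb (-1.26 ± 0.23) were lower on every array that measured them. The exception was Uqcrfs1, the iron-sulfur protein of complex III, with 2.39, 1.12, 2.04 and 1.60 on arrays 1 to 4 (1.79 ± 0.31, adjusted p = 3.96e-05). The lower count was 11 without array 1 and 11 without array 2. The medians of the same list in the other models were -0.30 in MMTV-her2/neu, -0.29 in MMTV-ras and -0.36 in MMTV-myc tumors, and no gene of the list passed a difference between MMTV-PyMT and any of the 3. Skeletal muscle is rich in mitochondria, and the mean of its list lay between -1.87 and -1.22 on the same arrays. Whether muscle had a part in this result was not tested.

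Most epithelial genes rose. Of 13 measured keratin and junction genes, 9 were higher (69.2%, against 18.3% of all genes) and 0 lower, with a median of 0.92. Epcam, an adhesion molecule of simple epithelia, had values of 2.14, 1.40, 2.08, 1.77 and 2.55 (1.99 ± 0.58, adjusted p = 0.00873). Krt8, the keratin of luminal cells, had values of 1.78, 1.20, 1.47, 1.85 and 2.16 (1.69 ± 0.45, adjusted p = 0.00475). The epithelial ETS factor Ehf changed by 1.57 ± 0.36 and Spint2, an inhibitor of membrane proteases, by 1.55 ± 0.29. For these 4 genes no array fell to 0. E-cadherin (Cdh1) had values of 1.53, 0.79, 0.54 and 1.86 on arrays 1, 2, 3 and 5 (1.18 ± 0.35, adjusted p = 0.0111) and did not pass without array 1 (1.06, adjusted p = 0.063) or without array 5 (0.95, adjusted p = 0.1). The count of higher genes was 6 without either of those arrays. The mean of the epithelial list by array lay between 0.66 and 1.23, and that of the adipocyte list on the same arrays between -1.73 and -0.74. Whether a lower share of fat cells had a part in these rises was not tested.

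Among luminal regulators, 4 of 10 were higher (40%, against 18.3% of all genes) and 1 lower (10%, against 12%). Gata3, the zinc finger factor that maintains luminal cells, had values of 1.22, 1.35, 1.58, 1.27 and 1.80 (1.45 ± 0.23, adjusted p = 1.85e-05). Hey1, a target of Notch signalling, had values of 1.58, 1.27, 2.08, 1.54 and 1.98 (1.69 ± 0.28, adjusted p = 1.81e-05), and Id2, an inhibitor of basic helix-loop-helix factors, changed by 1.18 ± 0.30. These 3 genes were above 0 on every array. The lower gene, the cytokine Tnfsf11 (-0.39, adjusted p = 0.0412), did not pass when any 1 array was left out. Foxa1 (0.07, adjusted p = 0.8) and Stat5a (0.14, adjusted p = 0.53) did not pass. Of 14 basal and myoepithelial genes, 3 were higher (21.4%, near the 18.3% of all genes) and 1 lower, or 1 and 0 without array 5; Sox10, a factor of progenitor-like and neural crest cells, had values of 1.44, 1.25, 1.06, 1.79 and 2.40 (1.59 ± 0.31, adjusted p = 0.000244). The basal keratins Krt5 (-0.26, adjusted p = 0.69) and Krt17 (0.22, adjusted p = 0.65) and the basal factor Trp63 (-0.15, adjusted p = 0.71) did not pass. Snai2, a repressor present in basal and progenitor cells, had values of 1.06, 1.56, 1.60, 0.95 and 1.82 (1.40 ± 0.25, adjusted p = 6.47e-05).

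Milk genes split. Csn1s1 and Csn2 encode the alpha and beta caseins and fell, whereas Wfdc18, a whey acidic protein relative, rose. In mammary epithelium casein genes are switched on by prolactin through STAT5, which binds TTCNNNGAA. The windows of 250 bases before the start of these 3 genes are shown, 5′ to 3′ on the gene's strand, since their RNAs moved in opposite directions; a match to TTCNNNGAA, a motif that reads the same on both strands, is in capitals (RefSeq, GRCm38.p6). The window of Csn1s1 lies at chr5:87665958-87666207 (plus strand), that of Csn2 at chr5:87699426-87699675 (minus strand) and that of Wfdc18 at chr11:83708754-83709003 (plus strand).
Csn1s1: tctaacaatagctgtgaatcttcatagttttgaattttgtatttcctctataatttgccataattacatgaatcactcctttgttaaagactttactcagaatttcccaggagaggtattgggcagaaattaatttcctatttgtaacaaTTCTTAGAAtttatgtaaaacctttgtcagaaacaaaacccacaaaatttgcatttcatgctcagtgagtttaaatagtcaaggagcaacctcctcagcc
Csn2: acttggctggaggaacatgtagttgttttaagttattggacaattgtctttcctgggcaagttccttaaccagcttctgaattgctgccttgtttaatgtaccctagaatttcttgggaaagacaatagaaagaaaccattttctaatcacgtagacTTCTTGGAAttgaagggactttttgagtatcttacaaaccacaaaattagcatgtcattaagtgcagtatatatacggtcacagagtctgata
Wfdc18: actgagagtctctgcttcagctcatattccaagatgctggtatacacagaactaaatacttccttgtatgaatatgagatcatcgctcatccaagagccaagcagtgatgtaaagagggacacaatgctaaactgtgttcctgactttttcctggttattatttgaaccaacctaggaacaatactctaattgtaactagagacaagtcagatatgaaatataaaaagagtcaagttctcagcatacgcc
The casein windows each held 1 match, which began 100 bases before the start in Csn1s1 and 93 bases before it in Csn2, and that of Wfdc18 held 0. Of all 32851 mouse windows of this length, 2306 (7.02%) held the motif. A match says only that the letters are there, and a part of the motif in these changes was not tested.

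Of 13 measured milk and lactation genes, 5 were higher (38.5%, against 18.3% of all genes) and 3 lower (23.1%, against 12%). Their median was -0.06. Csn2 had values of -4.46, -2.25, -3.84, -3.41 and -2.43 and was 9.7-fold lower (-3.28 ± 0.54, adjusted p = 2.29e-05). Csn1s1 had values of -3.89, -2.35, -2.40, -2.57 and -1.71 and was 5.99-fold lower (-2.58 ± 0.49, adjusted p = 0.000149). Both caseins were below 0 on every array. Glycam1, a mucin-like milk protein, had values of -2.18, -1.64, -0.16 and -1.56 on arrays 1 to 4 (-1.39 ± 0.34, adjusted p = 0.00221), with array 3 near 0.

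Wfdc18 had values of 2.24, 2.20, 2.43, 2.76 and 3.02 and was 5.78-fold higher (2.53 ± 0.58, adjusted p = 0.00122). Aqp5, a water channel of gland epithelium, had values of 3.45, 1.72, 2.96, 1.72 and 3.61 (2.69 ± 0.48, adjusted p = 6.47e-05). These 2 genes and the caseins were all picked from genes with every array on 1 side of 0, so they could not overlap. Btn1a1 and Xdh encode butyrophilin and xanthine oxidoreductase, proteins of the milk fat globule membrane; they changed by 1.64 ± 0.31 (adjusted p = 0.000132) and 0.79 ± 0.19 (adjusted p = 0.00205). Lactoferrin (Ltf) had 4.16 on array 1 against 0.93 to 1.82 on the others (1.86 ± 0.42, adjusted p = 0.00088). Its call held without array 1. Both caseins were above the reference RNA in the 4 normal glands hybridised with it, where Csn2 stood at 4.08 to 5.03 and Csn1s1 at 3.69 to 4.43 on the log2 scale.

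**Figure D2:**
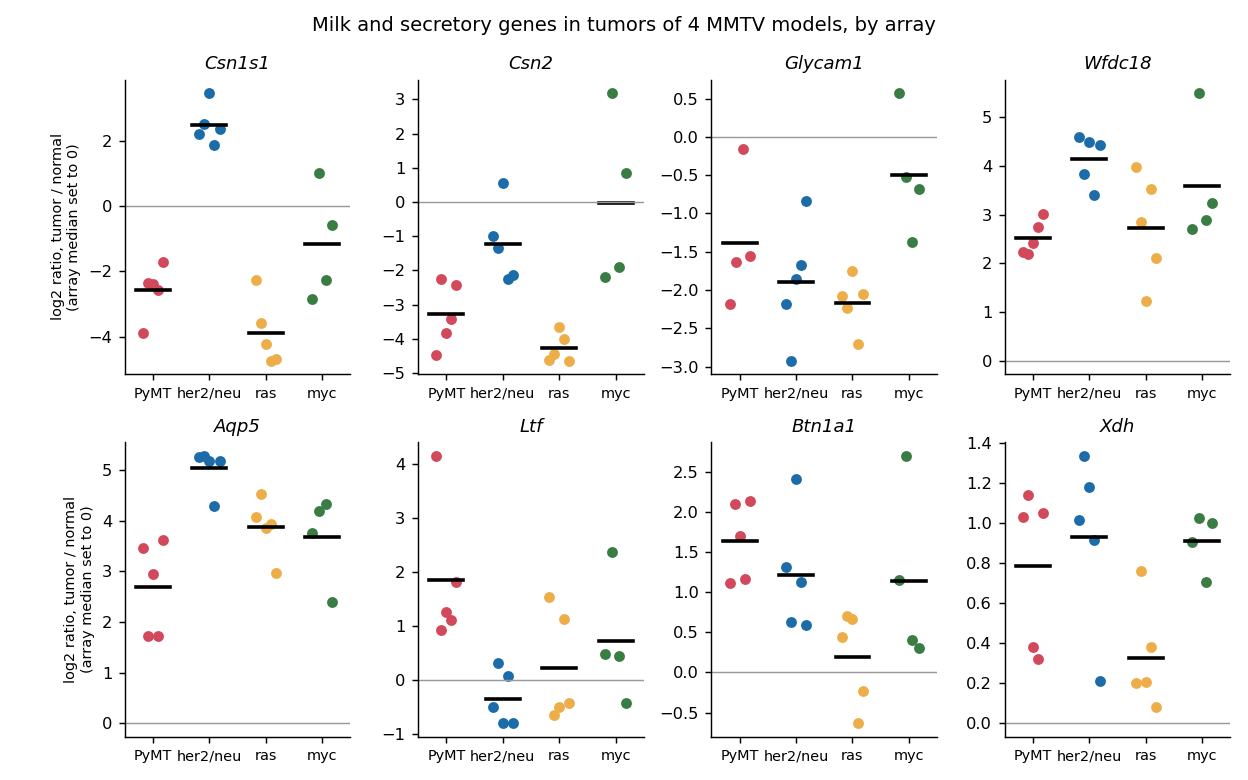
Log2 ratio of tumor over normal gland (vertical axis, array median at 0) of 8 milk genes on the direct arrays of MMTV-PyMT, MMTV-her2/neu, MMTV-ras and MMTV-myc tumors, from left to right. Each point is 1 array and each black bar a mean; Csn2 is below 0 in all 5 MMTV-PyMT arrays and Wfdc18 above 0, and Csn1s1 is above 0 in all 5 MMTV-her2/neu arrays.

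Of 27 measured partners and members of the Src, PI3 kinase and PP2A pathways, 8 were higher (29.6%, against 18.3% of all genes) and 3 lower (11.1%, against 12%), with a median of 0.13. Pik3r1, the regulatory p85 subunit of PI3 kinase, had values of 0.65, 1.11, 0.99, 0.93 and 1.67 (1.07 ± 0.18, adjusted p = 3.2e-05), while the catalytic subunit Pik3ca had -0.61, -0.54, -0.24, -0.59 and -0.46 (-0.49 ± 0.13, adjusted p = 0.00366). These 2 genes did not overlap on any array, but Pik3ca was named after its values were seen, so this adds no evidence. Ywhae, a 14-3-3 protein, changed by 1.20 ± 0.28 (4 arrays), the kinase Akt1 by 0.79 ± 0.19, the PP2A regulatory subunit Ppp2r5c by 0.74 ± 0.19, Src by 0.72 ± 0.19 and the RAF kinase Araf by 0.68 ± 0.09. The higher count was 7 to 8 when any 1 array was left out, and the lower count 1 to 2.

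Of 17 genes of MAP kinase feedback and immediate early response, 8 were higher (47.1%) and 1 lower (5.88%). Of all genes, 18.3% were higher and 12% lower. The median of the list was 0.29. Spred1, an inhibitor of RAF activation, had values of 1.08, 0.74, 1.21, 0.65 and 1.92 (1.12 ± 0.27, adjusted p = 0.00201). Dusp6, the phosphatase that ERK induces and that dephosphorylates ERK, had values of 1.18, 0.83, 1.42, 0.60 and 1.45 (1.10 ± 0.22, adjusted p = 0.000324). Dusp7, a related phosphatase, was measured on arrays 2 to 4 at 1.93, 0.96 and 1.79 (1.56 ± 0.26), and Fos changed by 0.73 ± 0.17. These 4 genes were above 0 on each array that measured them. The higher count was 5 without array 2 and 4 without array 5.

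Of 34 mitosis genes, 10 were higher (29.4%, against 18.3% of all genes) and 1 lower (median 0.32). Of 26 replication genes 6 were higher (23.1%) and 0 lower (median 0.21), a share near that of all genes. Cyclin A2 (Ccna2) had values of 2.00, 1.98, 1.05, 0.63 and 1.85 (1.50 ± 0.18, adjusted p = 2.9e-07), securin (Pttg1) changed by 1.26 ± 0.19 and the spindle protein Hmmr by 1.06 ± 0.16. The ribonucleotide reductase subunit Rrm2 (0.85 ± 0.23) and the clamp loader subunit Rfc5 (0.84 ± 0.21) led the replication genes. Mki67, the proliferation antigen, had 0.00, 0.00, -0.10, 0.34 and 0.30 (0.11 ± 0.15, adjusted p = 0.622) and Top2a changed by 0.59 ± 0.39 (adjusted p = 0.251); neither passed. Without array 1, 5 mitosis and 4 replication genes were higher; without array 5, 5 and 2.

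Of 13 G1 cyclins and cell cycle brakes, 6 were higher (46.2%, against 18.3% of all genes) and 0 lower. The higher count was 3 without array 1 or array 2 and 2 without array 5. Cdk4, the kinase that cyclin D activates, had values of 1.39, 1.62, 1.72 and 2.71 on arrays 2 to 5 and was 3.62-fold higher (1.86 ± 0.39, adjusted p = 0.000518). Cyclin D1 (Ccnd1) had values of 0.76, 0.85, 1.18, 0.20 and 1.15 (0.83 ± 0.29, adjusted p = 0.028). It did not pass without array 1 (0.85, adjusted p = 0.0614), 2 (0.82, adjusted p = 0.061), 3 (0.74, adjusted p = 0.0891) or 5 (0.75, adjusted p = 0.106). Myc changed by 0.50 ± 0.16 (adjusted p = 0.0178), and did not pass without array 2 (0.34, adjusted p = 0.139) or 5 (0.45, adjusted p = 0.0769). Of 11 p53 targets, 1 passed (9.09%, against 30.3% of all genes). It was Pmaip1, a BH3-only death protein (0.74 ± 0.15, adjusted p = 0.000261).

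Of 17 genes of protein folding and the endoplasmic reticulum, 8 were higher (47.1%, against 18.3% of all genes), 1 was lower and 8 did not pass (median 0.42). P4hb, which forms disulfide bonds, had values of 3.24, 0.86, 2.19, 1.43 and 3.04 and was 4.44-fold higher. The chaperone BiP (Hspa5) had 1.03, 0.66, 1.72, 0.89 and 1.89 (1.24 ± 0.26, adjusted p = 0.000533), and Herpud1, which acts in degradation of misfolded proteins, had 1.47, 0.94, 1.20, 0.62 and 1.30 (1.10 ± 0.19). The translocon subunit Sec61b changed by 0.91 ± 0.19 and the co-chaperone Dnajc3 by 0.84 ± 0.17. These 5 genes were above 0 on every array. The higher count stayed between 6 and 8 when any 1 array was left out, and the lower gene, Atf4 (-0.55, adjusted p = 0.0255), did not pass without array 1 or array 5. By comparison, 3 of 18 cytosolic chaperones, 3 of 22 proteasome subunits and 3 of 23 cytosolic ribosomal proteins were higher, shares below the 18.3% of all genes.

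Of 24 fibroblast and matrix genes, 4 were higher (16.7%) and 2 lower (8.33%), shares below the 18.3% and 12% of all genes (median -0.07), and 1 was lower without array 1 or array 5. The small proteoglycans biglycan (Bgn) and decorin (Dcn) went opposite ways. Bgn had 1.26, 2.10, 1.51, 1.31 and 2.33 (1.70 ± 0.28, adjusted p = 2.23e-05), and Dcn had -1.49, -1.40, -1.01, -1.25 and -1.30 (-1.29 ± 0.40, adjusted p = 0.0134). Their values did not overlap on any array, but Dcn was named after its values were seen, so this adds no evidence. Thrombospondin 1 (Thbs1) changed by 1.52 ± 0.38. The fibrillar collagens Col1a1 (-0.02, adjusted p = 0.97) and Col1a2 (-0.08, adjusted p = 0.87) did not pass.

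In the basement membrane, nidogen 1 (Nid1) had -2.00, -1.28, -1.34, -1.28 and -1.53 (-1.49 ± 0.27, adjusted p = 0.000114) and the laminin chain Lama2 changed by -0.93 ± 0.23, whereas the heparan sulfate proteoglycan Hspg2 changed by 0.86 ± 0.23 and the hyaluronan receptor Cd44 by 1.06 ± 0.31. Of 16 such genes 3 were higher and 3 lower (18.8% each way, against 18.3% and 12% of all genes). Of 16 endothelial genes, 3 were lower and 1 higher, 25% in all against 30.3% of all genes, with 0 higher without array 1; the lowest was Ramp2, the adrenomedullin receptor partner, at -0.61 ± 0.11 (adjusted p = 9.41e-05). Cdh5 (-0.32, adjusted p = 0.11) and Kdr (-0.07, adjusted p = 0.76) did not pass. Vegfa, the vessel growth factor, had 1.58, 1.25, 1.10, 0.43 and 1.64 (1.20 ± 0.23, adjusted p = 0.000167). Cathepsin D (Ctsd), a lysosomal protease, changed by 1.58 ± 0.28, and of 25 proteases and inhibitors 5 were higher (20%, near the 18.3% of all genes) and 1 lower. The higher count of proteases was 3 without array 2 and 1 without array 5, and the lower count 0 without any 1 array.

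Immune genes passed at a share near that of all genes: of 116 measured genes in 8 immune lists, 15 were higher and 17 lower, 27.6% in all against 30.3%. Of 24 macrophage and myeloid genes, 4 were higher (16.7%) and 2 lower (8.33%), against 18.3% and 12% of all genes. Of these lists' members, 2 macrophage and myeloid genes were higher without array 1 or array 5, and 0 were lower without array 2, 3, 4 or 5. Aif1, an actin-binding protein of macrophages, had 1.82 on array 1 and 0.48 to 0.72 on the others (0.86 ± 0.17, adjusted p = 0.000223). The endosomal metal transporter Slc11a1 changed by 0.83 ± 0.16. The general macrophage markers Cd68 (0.15, adjusted p = 0.61) and Adgre1 (-0.04, adjusted p = 0.81) did not pass. Of 10 neutrophil genes, 3 were higher (30%, against 18.3% of all genes): Lcn2, Ltf and the receptor Csf3r (0.64 ± 0.16). Epithelium can also make the first 2 of these. Neutrophil granule and cytosol markers did not pass: S100a8 was at -0.29 (adjusted p = 0.46), S100a9 at -0.08 (adjusted p = 0.92), Camp at -0.28 (adjusted p = 0.079) and Ngp at -0.09 (adjusted p = 0.74). The median of the neutrophil list was -0.08, and 6 of its 10 genes were below 0.

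Of 14 T and NK cell genes, 4 were lower (28.6%, against 12% of all genes) and 0 higher; 2 were lower without array 1 and 1 without array 5. The interleukin 7 receptor (Il7r) had -0.73, -0.70, -0.56, -0.44 and -1.05 (-0.69 ± 0.20, adjusted p = 0.00726), and did not pass without array 5 (-0.61, adjusted p = 0.0507). Cd4 (-0.14, adjusted p = 0.5) and Cd8a (-0.14, adjusted p = 0.4) did not pass. B2m, the light chain of MHC class I, had -1.82, -1.27, -0.91, -2.20 and -0.69 (-1.38 ± 0.45, adjusted p = 0.0201), and did not pass without array 1 (-1.27, adjusted p = 0.0738) or array 4 (-1.17, adjusted p = 0.0783). H2-Ob, a chain of the MHC class II accessory protein DO, changed by -0.70 ± 0.18 (adjusted p = 0.00412). Of 36 chemokines and cytokines, 2 were higher (5.56%, against 18.3% of all genes) and 7 lower (19.4%, against 12%). The lower count was 4 without array 1 and 3 without array 5.

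**Figure D3:**
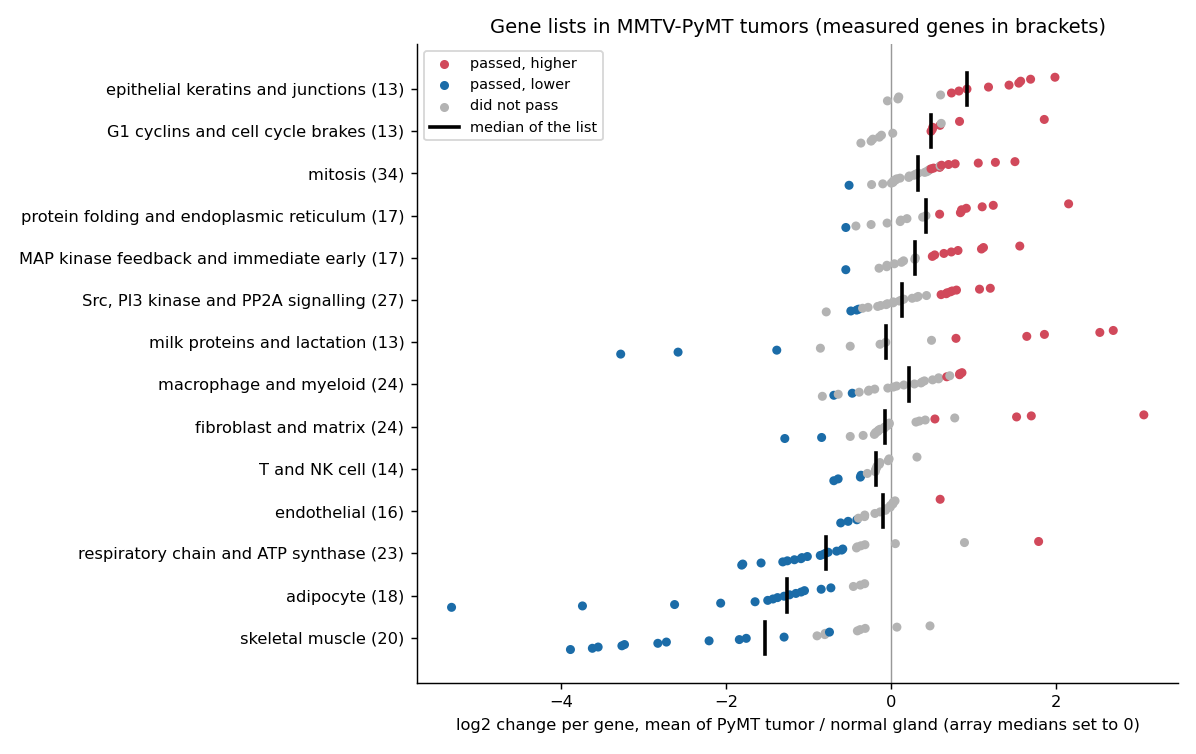
Change of each measured gene in MMTV-PyMT tumor over normal gland (horizontal axis, mean log2 ratio over the arrays, array median at 0) for 14 gene lists. Red points passed and were higher, blue points passed and were lower, grey points did not pass, and the black bar is the list's median: it is -1.53 for skeletal muscle, -1.26 for adipocyte, -0.80 for the respiratory chain and 0.92 for epithelial genes.

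The series also allowed the question of how middle T tumors differ from tumors of other oncogenes under the same promoter. Few genes passed. Against MMTV-her2/neu 16 genes (0.277%) passed, 5 higher (0.0867%) and 11 lower (0.191%) in MMTV-PyMT tumors. Against MMTV-ras 29 genes (0.503%) passed, 16 higher (0.277%) and 13 lower (0.225%), and against MMTV-myc 20 genes (0.347%), 8 higher (0.139%) and 12 lower (0.208%). The unadjusted p was under 0.05 for 545, 575 and 679 genes. The 3 comparisons share the MMTV-PyMT arrays. MMTV-PyMT and the other model did not overlap for 16 of the 16, 26 of the 29 and 18 of the 20 genes. Of all genes, 7.65%, 4.61% and 5.2% did not overlap. The genes that passed were chosen by the difference on these same arrays, so their lack of overlap is no separate evidence. Without centring the counts were 11 (0.191%; 3 higher, 8 lower), 22 (0.381%; 3 higher, 19 lower) and 27 (0.468%; 1 higher, 26 lower), with a median shift of all genes of -0.21 against MMTV-ras and -0.23 against MMTV-myc. Fitted on the compared arrays alone, 301 (5.22%), 76 (1.32%) and 6 genes (0.104%) passed.

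Dusp6 and Rhox6 set MMTV-PyMT tumors apart from all 3 other models, 1 gene (0.0173%) in each direction. Dusp6, described above, was at 1.18, 0.83, 1.42, 0.60 and 1.45 in MMTV-PyMT tumors, against 2.75, 2.70, 2.44, 3.23 and 3.10 in MMTV-her2/neu, 2.28, 2.82, 3.19, 2.03 and 3.64 in MMTV-ras and 2.93, 3.74, 3.08 and 3.29 in MMTV-myc tumors. The highest MMTV-PyMT array was below the lowest array of the other models. The difference was -1.75 ± 0.32 from MMTV-her2/neu (adjusted p = 0.0036), -1.70 ± 0.32 from MMTV-ras (adjusted p = 0.0074) and -2.17 ± 0.34 from MMTV-myc (adjusted p = 0.00052). So the gene rose over normal gland in MMTV-PyMT tumors but by less than in the others.

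Rhox6, a homeobox gene of the reproductive Rhox cluster known from placenta and germ cells, was at 1.80, 1.13, 1.06, 1.21 and 0.94 in MMTV-PyMT tumors (1.23 ± 0.13 over normal gland, adjusted p = 8.97e-09). It was at -0.27, 0.01, -0.15, -0.02 and -0.18 in MMTV-her2/neu, at -0.03, -0.47, -0.10, -0.08 and -0.88 in MMTV-ras and at -0.05, 0.01, -0.23 and -0.84 in MMTV-myc tumors. Every MMTV-PyMT array was above every array of the other 3. The differences were 1.35 ± 0.18 (adjusted p = 1.6e-05), 1.54 ± 0.18 (adjusted p = 1.5e-06) and 1.51 ± 0.19 (adjusted p = 1e-05). Both genes passed all 3 comparisons without any 1 array of MMTV-PyMT or of the other model. Neither passed against MMTV-myc when the compared arrays alone were fitted with replicate numbers as a block (Rhox6 1.58, adjusted p = 0.172, and Dusp6 -2.26, adjusted p = 0.168). Those numbers did not pair the arrays.

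Clca3a1, an accessory protein of calcium-activated chloride channels, separated the models in another way. It was at 2.73, 1.52, 2.17, 2.51 and 2.53 in MMTV-PyMT tumors, against 0.20, -1.02, -1.14, -1.08 and -0.62 in MMTV-her2/neu and -0.88, -0.93, -0.13, -0.38 and -0.16 in MMTV-ras tumors. In MMTV-myc tumors it was at 2.52, 4.26, 1.88 and 3.51, which overlapped MMTV-PyMT. The difference was 3.03 ± 0.47 from MMTV-her2/neu (adjusted p = 0.00036), 2.79 ± 0.47 from MMTV-ras (adjusted p = 0.0022) and -0.75 ± 0.50 from MMTV-myc (adjusted p = 0.61).

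Against MMTV-her2/neu the largest difference was that of Csn1s1, at -3.89, -2.35, -2.40, -2.57 and -1.71 in MMTV-PyMT tumors and at 2.22, 2.53, 3.47, 1.89 and 2.38 in MMTV-her2/neu tumors (-5.08 ± 0.70, adjusted p = 2.9e-05). The casein was thus below normal gland on every MMTV-PyMT array and above it on every MMTV-her2/neu array. It was also low in MMTV-ras tumors, at -2.26, -3.59, -4.23, -4.74 and -4.68, and the difference there did not pass (1.32, adjusted p = 0.56). Csn2 averaged -3.28 in MMTV-PyMT and -1.24 in MMTV-her2/neu tumors, which did not pass (-2.04 ± 0.77, adjusted p = 0.295).

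Igfals, which stabilises circulating IGF complexes, was at -0.18, -0.38, -0.06, -0.28 and 0.01 in MMTV-PyMT tumors and at 0.94, 1.43, 1.27, 1.13 and 1.57 in MMTV-her2/neu tumors (-1.45 ± 0.15, adjusted p = 5.4e-08). Col9a1, a cartilage collagen chain, was raised over normal gland in both, at 2.08, 1.27, 2.38, 1.32 and 2.95 in MMTV-PyMT and at 4.89, 4.53, 4.16, 4.48 and 4.99 in MMTV-her2/neu tumors (-2.61 ± 0.57, adjusted p = 0.03). Neither gene overlapped between the models. The Col9a1 difference did not pass without MMTV-PyMT array 1 (-2.63, adjusted p = 0.0808), 2 (-2.43, adjusted p = 0.136) or 4 (-2.44, adjusted p = 0.0764), nor without MMTV-her2/neu array 1 (-2.54, adjusted p = 0.0823), 2 (-2.63, adjusted p = 0.0802), 4 (-2.64, adjusted p = 0.0687) or 5 (-2.51, adjusted p = 0.0986). The count against MMTV-her2/neu was 8 without MMTV-PyMT array 1, 5 without array 2 and 9 without array 5, and 10, 7 and 8 without MMTV-her2/neu arrays 2, 4 and 5. MMTV-PyMT array 3 and MMTV-her2/neu array 4 stood within 10 numbers of each other in the array database. Between these 2 arrays Csn1s1 differed by -4.28, Col9a1 by -2.10 and Igfals by -1.19; since the models do not overlap for the 16 genes, the signs between these 2 arrays were fixed by that.

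Against MMTV-ras, the growth factor binding protein Igfbp5 was at 3.43, 3.15, 2.17, 2.43 and 4.14 in MMTV-PyMT tumors and at -0.19, 0.19, 0.37, 0.00 and 0.06 in MMTV-ras tumors (2.98 ± 0.59, adjusted p = 0.0089). The groups lay far apart, but the difference did not pass without MMTV-PyMT array 5 (2.71, adjusted p = 0.0528) or MMTV-ras array 1 (2.91, adjusted p = 0.0525). It did not pass against MMTV-her2/neu (2.00 ± 0.59, adjusted p = 0.15) or MMTV-myc (0.60, adjusted p = 0.79).

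Rgs2, a brake on G protein signalling, was at -0.12, -0.20, 0.07, -0.41 and -0.16 in MMTV-PyMT tumors and at 2.06, 0.87, 0.81, 1.81 and 1.80 in MMTV-ras tumors (-1.63 ± 0.27, adjusted p = 0.0017). It kept its call without any 1 array. Nras, a RAS family GTPase, was at -0.77, -0.27, -0.30, -0.24 and -0.15 in MMTV-PyMT and at 1.31, 0.29, 0.91, 1.00 and 0.15 in MMTV-ras tumors (-1.08 ± 0.22, adjusted p = 0.0089). The labels do not say which ras gene the transgene holds. Nr4a1, an immediate early nuclear receptor, differed by -1.66 ± 0.34 (adjusted p = 0.011). Without MMTV-ras array 1 neither Nras (-0.93, adjusted p = 0.0525) nor Nr4a1 (-1.59, adjusted p = 0.0525) passed, and without MMTV-ras array 4 Nr4a1 did not (-1.54, adjusted p = 0.0643). The count was 5 without MMTV-ras array 1 and 15 without array 4 or 5, and 19, 14 and 9 without MMTV-PyMT arrays 1, 2 and 5. No MMTV-PyMT array stood within 10 numbers of an MMTV-ras array in the array database.

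Against MMTV-myc, caspase 1 (Casp1), the inflammatory caspase, was at -1.52, -1.50, -1.27, -1.74 and -0.61 in MMTV-PyMT tumors and at -1.08, 0.81, 0.01 and 1.15 in MMTV-myc tumors (-1.55 ± 0.35, adjusted p = 0.039). The groups overlapped through MMTV-PyMT array 5 and MMTV-myc array 1. Mia, a small secreted protein known from cartilage and melanoma, differed by -2.25 ± 0.50 (adjusted p = 0.039), and the ciliary membrane protein Tmem216 by -1.47 ± 0.29 (adjusted p = 0.017). Casp1 did not pass without MMTV-PyMT array 1, 2, 3 or 4 (-1.57 to -1.45, adjusted p = 0.0556 to 0.104), and Mia did not without array 1, 3, 4 or 5 (-2.31 to -2.08, adjusted p = 0.0639 to 0.104). Without MMTV-myc array 2 neither Casp1 (-1.35, adjusted p = 0.136) nor Mia (-1.93, adjusted p = 0.139) passed, and without MMTV-myc array 4 neither Casp1 (-1.24, adjusted p = 0.191), Mia (-2.08, adjusted p = 0.132) nor Tmem216 (-1.40, adjusted p = 0.0655). Among higher genes were Tmem33 (1.29) and the leukocyte sialoprotein Spn (1.16), which did not pass with the compared arrays alone or without centring (1.03, adjusted p = 0.108, and 0.90, adjusted p = 0.0802). The count was 6 to 12 without any 1 MMTV-PyMT array, and 43, 30 and 7 without MMTV-myc arrays 1, 3 and 4. No MMTV-PyMT array stood within 10 numbers of an MMTV-myc array in the array database.

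**Figure D4:**
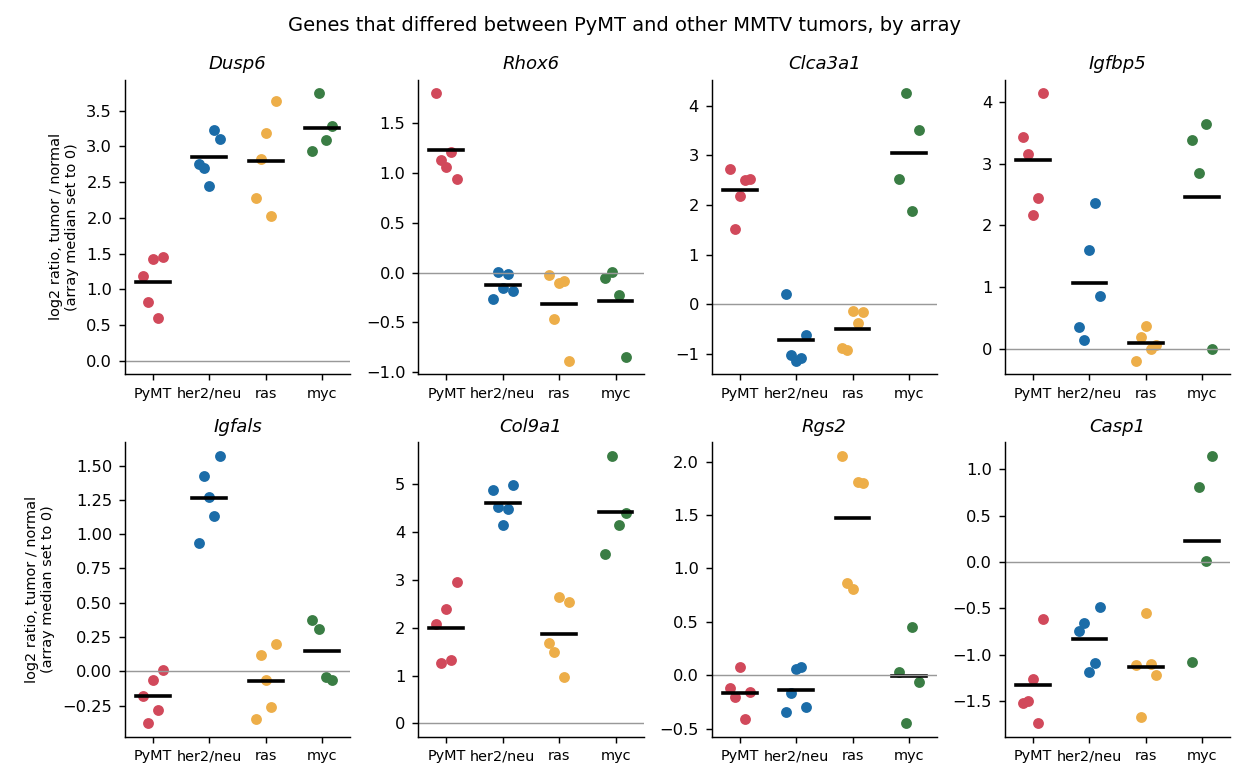
Log2 ratio of tumor over normal gland (vertical axis, array median at 0) on the direct arrays of MMTV-PyMT, MMTV-her2/neu, MMTV-ras and MMTV-myc tumors, from left to right, for 8 genes that passed in at least 1 comparison of models. Each point is 1 array and each black bar a mean; the 5 MMTV-PyMT arrays of Dusp6 lie between 0.60 and 1.45, below all arrays of the other models, and those of Rhox6 between 0.94 and 1.80, above them.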

How the data were processed

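RNA of tumor (Cy5) and wild-type gland (Cy3) was hybridised on 2-colour cDNA arrays, per the labels' protocols. The values the authors deposited, 1 log ratio per feature and array with no base stated, were read as log2 because only that base met the selection count given for the series. Background correction, normalization and spot filters are not given in the sources used here. Tumor over normal was settled from the C3(1) Tag model, whose direct arrays correlated with its arrays against reference RNA (r = 0.499). Columns of the deposited table were matched to arrays by label.

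Of 9596 features, 7486 had 1 symbol, 483 several and 1627 none; features of a gene were averaged, and 31 of 147 called genes with several features had features of opposite sign. Arrays were centred on their median. limma 3.58.1 (R 4.3.3) fitted the 38 direct arrays as 8 model means, with at least 3 values in a model and Benjamini-Hochberg adjustment over 5768 genes. Other steps used Python 3.11.15. On simulated data 94 of 100 genes changed by 1 on the log2 scale were called for tumor over normal. Against MMTV-her2/neu, MMTV-ras and MMTV-myc 79, 80 and 73 of 100 were called. Unchanged genes called numbered 12, 6, 11 and 8 in the same order. The simulated noise was independent between arrays and had the same spread for a gene in all models, so recovery in the real data may differ. The number of arrays limits the precision; arrays give no count depth.

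Genes were named by rule: the 12 largest rises and falls with all 5 arrays on 1 side, up to 4 called genes with the smallest p per list plus defining markers, the 6 largest differences per direction and model comparison, and set markers such as Mki67, Ccnd1 and Cdh1. A few further list members were named after their values were seen. The members and the 38 lists were chosen with earlier results of these data known. Alternatives were values as deposited, a common-feature median, quantile normalization, complete genes, 1 feature per gene, and the compared arrays alone. Further ones were array runs as a block, replicate numbers as a block on the compared arrays alone, and leaving out each array. Array runs were inferred from array database numbers within 10 of each other (19 runs).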

Additional observations from a re-analysis of the deposited data

Results flagged for a closer look

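On single arrays, 12 of 162 named genes measured on 4 or 5 MMTV-PyMT arrays had 1 array far from the rest by Dixon's criterion, which chance gives in about 1 of 20 genes. Array 1 stood apart for Ltf (4.16, others 0.93 to 1.82), Ccl28 (3.32, others 0.68 to 1.43), Aif1 (1.82, others 0.48 to 0.72) and Nras (-0.77, others -0.30 to -0.15). Array 5 stood apart for Ces1d (-3.44, others -2.78 to -2.53), Rb1 (1.16, others 0.17 to 0.42), Cd81 (1.87, others 0.94 to 1.11) and Ephx1 (1.48, others 0.77 to 0.94). Array 3 stood apart for Cd79b (-0.18, others -0.75 to -0.59), Smad1 (0.32, others 0.92 to 1.01) and Bag1 (-0.26, others -0.75 to -0.61), and array 2 for Cav1 (-1.59, others -2.99 to -2.77). Without array 1 the chemokine Ccl28 did not pass (0.90, adjusted p = 0.052), and without array 5 Rb1 did not (0.32, adjusted p = 0.112).

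The following differences between models passed the test of the difference itself (limma, adjusted p under 0.05, PyMT minus the other model, log2 scale). Against MMTV-her2/neu, MMTV-PyMT tumors were higher for 2310057J18Rik by 3.08, Clca3a1 by 3.03, Rhox6 by 1.35, Dnajc5 by 1.17 and Smad1 by 1.12. They were lower for Csn1s1 (-5.08), Col9a1 (-2.61), Garem1 (-2.00), Dusp6 (-1.75), Psap (-1.54) and Igfals (-1.45). Of 17 alternatives, the replicate block apart, Psap did not pass in 10 (adjusted p up to 0.122), Col9a1 in 8, 2310057J18Rik in 5 and Garem1 in 1. Dnajc5 did not pass in 8 of 17 (as deposited, adjusted p = 0.104) and Smad1 in 8 of 16 (as deposited, adjusted p = 0.0851). Rhox6, Dusp6, Clca3a1, Csn1s1 and Igfals passed in all 17. The 2310057J18Rik values were uneven, at 3.57, 4.00, -0.23, 1.23 and 3.92 in MMTV-PyMT tumors, and its difference did not pass without MMTV-PyMT array 1 (2.81, adjusted p = 0.0832), 2 (2.71, adjusted p = 0.114) or 5 (2.73, adjusted p = 0.0791). Between MMTV-PyMT array 3 and MMTV-her2/neu array 4, which stood close in the array database, it was 0.39. High values of 2310057J18Rik were not particular to MMTV-PyMT. In MMTV-ras tumors it was at 4.57, 2.57, 0.655, 5.14 and 5.41, and in MMTV-myc tumors at -0.51, -0.12, 0.05 and 0.18.

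Against MMTV-ras, MMTV-PyMT tumors were higher for Igfbp5 by 2.98, Clca3a1 by 2.79, Dcaf12 by 1.54, Rhox6 by 1.54, Dusp18 by 1.49 and Smim3 by 1.49, and lower for Dusp6 (-1.70), Nr4a1 (-1.66), Shisa2 (-1.65), Rgs2 (-1.63), Nras (-1.08) and Bag1 (-1.08). Dcaf12 did not pass in 10 of 16 alternatives (as deposited, adjusted p = 0.0634), Dusp18 in 9 of 16 (as deposited, 0.198), Smim3 in 10 of 17 (as deposited, 0.237) and Bag1 in 10 of 17. Igfbp5 and Nr4a1 did not pass in 2, and Nras and Shisa2 in 1; Clca3a1, Rhox6, Dusp6 and Rgs2 passed in all 17. Against MMTV-myc they were higher for Rhox6 by 1.51, Dnajc5 by 1.34, Tmem33 by 1.29, Atg2b by 1.26, Spn by 1.16 and Stxbp4 by 1.08. They were lower for Mia (-2.25), Dusp6 (-2.17), 4930503L19Rik (-2.06), Casp1 (-1.55), Ak1 (-1.49) and Tmem216 (-1.47). Of 16 alternatives, 4930503L19Rik did not pass in 10, Ak1 in 9, Mia and Casp1 in 8, Stxbp4 in 7 (as deposited 0.82, adjusted p = 0.187), Atg2b in 5 (as deposited, adjusted p = 0.108), Dnajc5 in 5, Tmem33 and Spn in 2 and Tmem216 in 1. Rhox6 and Dusp6 passed in all 16.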

How the results depend on the processing

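The count of genes changed between MMTV-PyMT tumor and normal gland was 1058 to 1657 when 1 MMTV-PyMT array was left out, against 1749 with all 5; it was 1058 without array 5. It stayed within 1.5 times under the other settings run, 1220 as deposited to 2357 with the 5 arrays alone. Quantile normalization changed the split to 1097 higher and 1052 lower. The small counts between models depended on the setting. Against MMTV-her2/neu, where 16 passed, the count was 109 (41 higher, 68 lower) with quantile normalization, 9 with array run as a block, 301 with only the compared arrays and 5 to 13 without 1 array. Against MMTV-ras, where 29 passed, the counts were 80 (33 higher, 47 lower), 18, 76 and 5 to 37 in the same order. Against MMTV-myc, where 20 passed, they were 75 (28 higher, 47 lower), 8, 6 and 6 to 43, and also 13 with a common-feature median and 31 with genes measured on every array. Genes apart from all 3 models numbered 8 with quantile normalization and 2 to 3 without 1 MMTV-PyMT array. Replicate numbers did not pair the arrays (same-number correlations of -0.19 to 0.41). The replicate block was fitted on the compared arrays alone. Its limma counts were 310, 78 and 0, beside 301, 76 and 6 for those arrays without the block. For the last, 648 genes had an unadjusted p under 0.05 with the block. With it, 0 genes were apart from all 3 models. Rhox6 and Dusp6 passed all 3 comparisons under every other setting. No named result reversed. Among named genes, 14 lost their call over normal gland as deposited, 29 without array 1 and 40 without array 5; the causes were not tested. Signal over background was not used here, so dim spots could not be told from bright ones.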

Other observations

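Some further gene groups of MMTV-PyMT tumors belong to none of the paragraphs above. Of 31 genes of glutathione and xenobiotic metabolism, 5 were higher and 4 lower, 29% in all and so near the 30.3% of all genes; peroxiredoxin 1 (Prdx1), which reduces peroxides, changed by 0.59 ± 0.14 and the epoxide hydrolase Ephx1 by 0.97 ± 0.24. The higher count was 3 without array 5, and the lower count 2 without array 1, 3 or 5. Superoxide dismutase 1 (Sod1) was at -0.09 (adjusted p = 0.78) and did not pass. Of 12 glycolysis and hypoxia genes, 3 were higher (25%, against 18.3% of all genes) and 2 lower (16.7%, against 12%). The lower count was 1 without array 1, 2 or 5. The phosphofructokinase Pfkl changed by 0.86 ± 0.21, and Egln1, the oxygen sensor that marks HIF for degradation, by -0.82 ± 0.17 (adjusted p = 0.000443). Of 20 integrin and adhesion genes, 5 were higher (25%) and 3 lower (15%), against 18.3% and 12% of all genes. The higher count was 3 without array 1 and 1 without array 5, and the lower count 1 without either. The tetraspanin Cd81 changed by 1.19 ± 0.24.

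Of 15 genes of mesenchymal transition, 3 were higher (Snai2, Cd44 and Id2) and 3 lower, 20% each way against 18.3% and 12% of all genes. The lower count was 0 without array 1 or array 5. Of 11 smooth muscle and pericyte genes, 1 was higher and 1 lower (9.09% each way), both 0 without array 1 or array 5. Of 8 B and plasma cell genes, 2 were higher (25%) and 1 lower (12.5%), or 0 and 2 without array 1 and 1 and 1 without array 5. Of 8 MHC class II genes, 0 were higher and 2 lower (25%), or 0 and 1 without any 1 array. Of 16 MHC class I and interferon genes, 4 were higher (25%) and 2 lower (12.5%). Their higher count was 1 without array 1 or array 5 and 2 without array 3. Their lower count was 0 without array 1 or array 4 and 1 without array 2 or array 5. Of 7 nerve and glia genes, 1 was higher and 1 lower (14.3% each way). Of all genes, 18.3% were higher and 12% lower. No gene passed among 8 keratinocyte and skin appendage genes, 3 mast cell and eosinophil genes and 2 erythroid genes.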
